A study of Caenorhabditis elegans with 8 samples.

Results

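The cathepsin B-like and related cysteine proteases of Caenorhabditis elegans were followed across 8 RNA-seq libraries, as 9 genes taken by symbol: cpr-1, cpr-2, cpr-3, cpr-4, cpr-5, cpr-6 and cpr-8, the cathepsin L gene cpl-1 and the cathepsin Z gene cpz-1. All 9 were among the 46748 genes of the count table, and 8 of them were among the 14272 genes with enough counts to be tested. The family was chosen by results of these libraries, the CPM of cpr-4 and cpr-1, which stood higher in both RNAi groups than in the control, and its members were then taken by name. The differences of the members from the control are therefore given as a description, without p-values, and the number of members past the threshold there is printed only as a count. For the members, only the comparison between the RNAi groups is read as a test.

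RNA came from whole nematodes of the wild-type strain N2 after feeding RNAi, in which worms eat bacteria that make double-stranded RNA against a chosen gene. The control group (2 libraries) was fed L4440, the feeding plasmid without an insert, and the treated groups (3 libraries each) were fed a plasmid against hlh-2, the worm's E protein gene, or against lin-32, a proneural gene related to atonal. The labels name no other allele or agent in any group. The sources used here do not give the age of the animals, the time on RNAi or the number of animals pooled.

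Papain-like cysteine proteases are made as inactive precursors and are activated in acid compartments, where an active-site cysteine cuts peptide bonds. Cathepsin B-like enzymes carry an extra loop that lets them trim dipeptides from protein ends, cathepsin L is a general endopeptidase, and cathepsin Z trims single residues. In the worm several cpr genes are known from the intestine, which digests bacteria with them, whereas cpl-1 acts in yolk processing and in moulting, and cpz-1 in moulting. Cystatins, encoded by cpi-1 and cpi-2, inhibit this protease family.

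Total counts ran from 22380739 to 34814808 per library. Levels are given in CPM (read counts scaled to the TMM-adjusted library total), and 1 CPM stands for about 22 counts in the smallest library. The targeted genes did not both follow the labels. The hlh-2 transcript stood at 50.6 and 49.0 CPM in L4440, at 49.0, 48.9 and 53.9 CPM under the hlh-2 RNAi label and at 23.0, 27.8 and 15.6 CPM where the label was lin-32 RNAi. The scarce lin-32 transcript had 33 and 39 counts in L4440, 73, 114 and 67 under the hlh-2 label and 28, 24 and 23 under the lin-32 label. Against L4440 its log2 fold change under the lin-32 label was -0.86 ± 0.29 (SE, edgeR adjusted p of 0.233), which did not pass. Under the hlh-2 label it was 0.85 ± 0.25 (SE, edgeR adjusted p of 0.456). For hlh-2 the value under the lin-32 label was -1.16 ± 0.15 (SE, edgeR adjusted p of 0.0041). Groups are therefore named by their labels, as hlh-2-labelled and lin-32-labelled libraries, and every direction below is between libraries so labelled. Nothing says that replicates came from separate cultures, so the spread behind each p-value may be technical.

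Of the 9 genes, 7 lie on chromosome V, cpr-6 lies on X and cpz-1 on I (WBcel235, Ensembl release 115). All are annotated as protein coding. The cpr-1 gene (WBGene00000781) covers V:11975551-11976756 on the plus strand with 3 exons, and cpr-4 (WBGene00000784) covers V:6614674-6615851 on the plus strand with 2 exons. The cpr-5 gene (WBGene00000785, V:1132598-1134036, minus strand) and cpr-8 (WBGene00021070, V:1134602-1139182, plus strand) are neighbours, with 565 bases between them. On the other side of cpr-5, at 667 bases, lies W07B8.4, listed here with the cathepsin B-like genes, which had at most 4 counts in any library. No other member has a member as its nearest protein-coding gene. Overlapping genes on the other strand, which an unstranded library cannot separate, were a piRNA within cpr-4 with 0 counts in every library and an snRNA within cpz-1 at no more than 0.268 CPM. The sources used here do not say how reads mapping to several genes were counted, so reads shared between similar members could be lost or split.

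Per kilobase of exon, the most abundant of the 9 genes was cpr-6, a cathepsin B-like gene, with a mean of 1017 CPM per kilobase over the 8 libraries, rank 126 of 14172 tested genes with an annotated length. Next came cpl-1 with 905 CPM per kilobase, rank 141. The order below them was cpz-1 at 396, cpr-1 at 189, cpr-4 at 169, cpr-5 at 115.4, cpr-3 at 28.7, cpr-8 at 6.61 and cpr-2 at 0.0746 CPM per kilobase. The ranges of most neighbours in this order were apart, except for 3 pairs. The range of cpr-6 (941 to 1079 CPM per kilobase) met that of cpl-1 (847 to 999), although cpr-6 was the higher in each of the 8 libraries. The ranges of cpr-1 and cpr-4 overlapped, with cpr-1 the higher in 7 of 8 libraries, and so did those of cpr-4 and cpr-5, with cpr-4 the higher in 8 of 8.

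**Figure D1:**
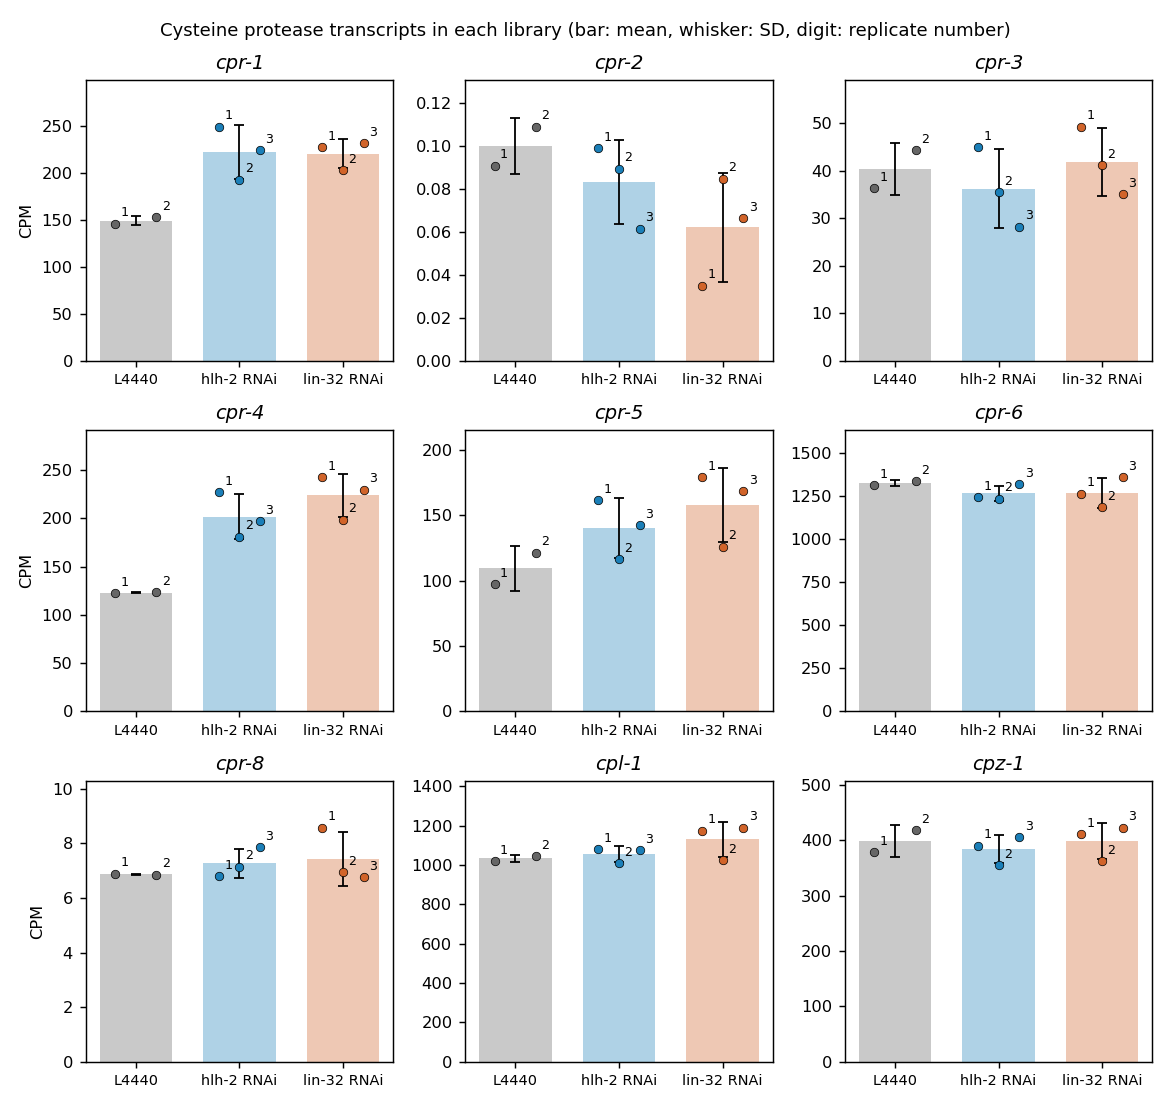
Level of each of the 9 genes in CPM, with its own axis from 0, by labelled group (L4440, n = 2, hlh-2 RNAi, n = 3, and lin-32 RNAi, n = 3). Points are libraries marked with their replicate number, bars are means and whiskers SD. For cpr-1 and cpr-4 all 6 RNAi libraries lie above both controls, while cpr-6, cpl-1 and cpz-1 differ little between groups. The cpr-2 panel rests on 1 to 3 counts per library.

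The members that stood apart from the control were cpr-4 and cpr-1, both known as gut proteases. The cpr-4 transcript, whose product is a cathepsin B-like protease that can be secreted, had 122.5 and 123 CPM in the L4440 libraries. It had 228, 181 and 197 CPM in the hlh-2-labelled libraries and 243, 199 and 230 CPM in the lin-32-labelled ones. Every RNAi library was thus above both controls, which lay within 1 CPM of each other. The difference from L4440 was 1.64-fold for hlh-2 RNAi, a log2 fold change of 0.72 ± 0.091 (SE), and 1.82-fold for lin-32 RNAi, a log2 fold change of 0.86 ± 0.092 (SE).

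The cpr-1 transcript, first described as a gut-specific cysteine protease, had 146 and 153 CPM in L4440. It had 249, 193 and 224 CPM in the hlh-2-labelled libraries and 227, 203 and 232 CPM in the lin-32-labelled ones. Here too no RNAi library reached down to a control. The difference from L4440 was 1.49-fold for hlh-2 RNAi (log2 0.57 ± 0.087, SE) and 1.48-fold for lin-32 RNAi (log2 0.56 ± 0.087, SE).

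The cpr-5 transcript, another cathepsin B-like protease of the intestine, had 97.3 and 121 CPM in L4440. It had 162, 116 and 143 CPM in the hlh-2-labelled libraries and 179, 126 and 168 CPM in the lin-32-labelled ones. The hlh-2-labelled libraries overlapped the controls through replicate 2, and the lin-32-labelled libraries all lay above them, replicate 2 by the smallest margin. The log2 fold change was 0.35 ± 0.15 (SE) for hlh-2 RNAi and 0.52 ± 0.15 (SE) for lin-32 RNAi, with a spread within groups of 15.6% to 17.8% (coefficient of variation). The adjacent cpr-8 showed no such difference.

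The abundant members stayed close to the control. For cpr-6 the L4440 libraries had 1313 and 1336 CPM, the hlh-2-labelled libraries 1241, 1234 and 1318 CPM and the lin-32-labelled ones 1264, 1186 and 1359 CPM. The log2 fold changes were -0.067 ± 0.054 and -0.061 ± 0.054 (SE), and the groups overlapped. For cpl-1 the values were 1020 and 1046 CPM in L4440, 1080, 1008 and 1076 CPM with hlh-2 RNAi and 1174, 1025 and 1189 CPM with lin-32 RNAi. Its log2 fold changes were 0.030 ± 0.059 and 0.13 ± 0.060 (SE), again with overlap. For cpz-1 the L4440 libraries, at 378 and 419 CPM, enclosed 3 of the 6 RNAi libraries, which ran from 356 to 423 CPM, and the log2 fold changes were -0.054 ± 0.070 and 8.6e-04 ± 0.070 (SE).

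The low members did not separate the groups either. The cpr-3 transcript ran from 28.2 to 49.2 CPM, with 36.4 and 44.2 CPM in L4440, 44.9, 35.5 and 28.2 CPM with hlh-2 RNAi and 49.2, 41.2 and 35.03 CPM with lin-32 RNAi. Its spread within a group was the widest of the tested members, a coefficient of variation of 23.1% with hlh-2 RNAi, and its log2 fold changes were -0.16 ± 0.17 and 0.048 ± 0.17 (SE). The cpr-8 transcript ran from 6.77 to 8.58 CPM, with log2 fold changes of 0.081 ± 0.13 and 0.11 ± 0.13 (SE). The cpr-2 gene had 1 to 3 counts in each library, at or under the floor of 3 counts, so it was not tested and no fold is given.

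**Figure D2:**
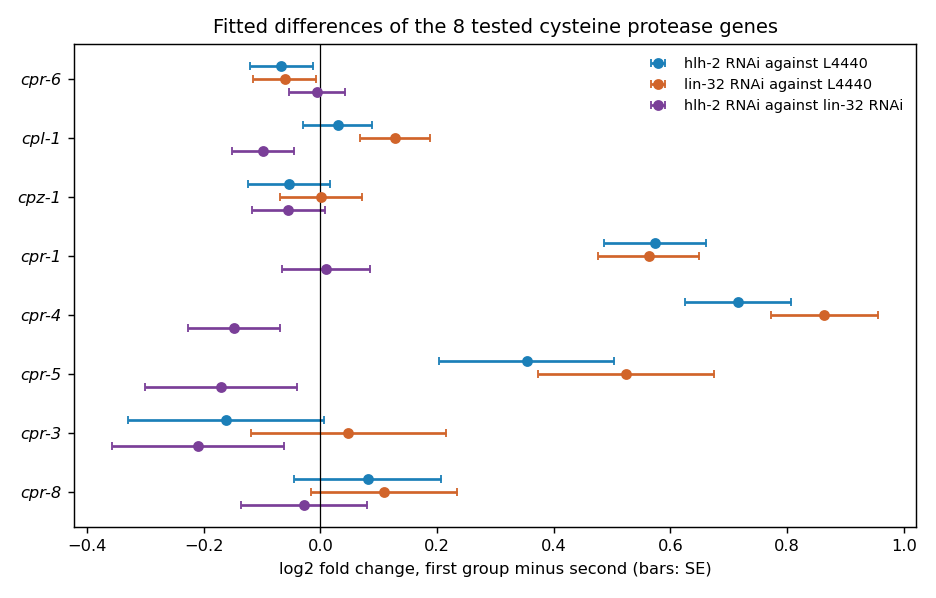
Fitted log2 fold change of the 8 tested genes in 3 comparisons (points; bars are SE). Against L4440 (blue and orange) cpr-4, cpr-1 and cpr-5 lie to the right, from 0.35 to 0.86, and the other 5 genes lie between -0.16 and 0.13. Between the RNAi groups (purple) all 8 genes lie between -0.21 and 0.010.

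As a count that the choice of the family already used, 2 of the 8 tested members, cpr-1 and cpr-4, were past an edgeR adjusted p of 0.05 as higher for hlh-2 RNAi, where 0.049% of all tested genes passed as higher and 0.203% in either direction. Both were also past it for lin-32 RNAi, where 0.21% of all tested genes passed as higher and 0.743% in either direction. These comparisons share the L4440 libraries and brought the family forward, so the counts are no evidence about the members and nothing is read from them. Libraries did not overlap in 2 members for hlh-2 RNAi and in 3 for lin-32 RNAi, all of them higher, against 11.9% and 14.4% of all tested genes. The median log2 fold change of the 8 members was 0.055 and 0.12, beside -6.8e-04 and 0.0015 for all tested genes. Without L4440 replicate 1, or without L4440 replicate 2, no member passed for hlh-2 RNAi and only cpr-4 passed for lin-32 RNAi. Without replicate 3 of hlh-2 RNAi only cpr-4 passed for hlh-2 RNAi.

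Shares of the family total differed between the groups while the total overlapped, and these shares were chosen after their values were seen. The levels of cpr-1 and cpr-4 against L4440 also chose the family, so their share reuses those values and supports nothing. The summed level of the 9 genes was 3120 and 3249 CPM in L4440, 3402, 3130 and 3400 CPM with hlh-2 RNAi and 3556, 3148 and 3643 CPM with lin-32 RNAi, so that each RNAi group overlapped the controls. Within that total, cpr-1 and cpr-4 together took 8.599% and 8.49% in L4440, 14.01%, 11.9% and 12.4% with hlh-2 RNAi and 13.2%, 12.7% and 12.7% with lin-32 RNAi. The share of cpr-6 was 42.1% and 41.1% in L4440, 36.5% to 39.4% with hlh-2 RNAi and 35.5% to 37.7% with lin-32 RNAi, and that of cpl-1 stayed between 31.7% and 33.0% in all libraries. Shares of a total are tied to each other, so a higher share of some members lowers the others.

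The ratio of cpr-4 to cpr-1 within a library was 0.840 and 0.808 in L4440, 0.913, 0.939 and 0.879 with hlh-2 RNAi and 1.07, 0.981 and 0.991 with lin-32 RNAi, and the 3 groups did not overlap. The ratio of cpr-6 to cpl-1 ran the other way, with 1.29 and 1.28 in L4440, 1.15, 1.22 and 1.22 with hlh-2 RNAi and 1.08, 1.16 and 1.14 with lin-32 RNAi, where the RNAi groups overlapped. These ratios were chosen after their values were seen and were not tested.

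Between the RNAi groups no member passed the test. The choice of members did not use this difference, although it used the cpr-1 and cpr-4 levels of these same libraries against L4440. All edgeR adjusted p-values lay between 0.693 and 0.984, 0 of 8 members had an unadjusted p under 0.05 (7.97% of all tested genes did), and DESeq2 and limma-voom also called 0. Of all tested genes 0.406% passed. Without a filter on low counts cpr-3, cpr-4 and cpr-5 did pass in this comparison, as described at the end. The libraries of the groups overlapped in all 8 members, where 13.7% of all tested genes did not overlap. The largest differences were those of cpr-3 at -0.21 ± 0.15, cpr-5 at -0.17 ± 0.13 and cpr-4 at -0.15 ± 0.078 (log2, SE, hlh-2 RNAi minus lin-32 RNAi). The cpr-1 transcript differed by 0.010 ± 0.076 and cpr-6 by -0.0059 ± 0.048 (log2, SE). In this fit 1 of 8 members lay above 0, as did 49.3% of all tested genes.

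Libraries of the RNAi groups with the same replicate number moved together, and that bears on this comparison. Replicate 2 was the lowest of the 3 in both RNAi groups for 6 of 8 members (cpr-1, cpr-4, cpr-5, cpr-6, cpl-1 and cpz-1), a pattern held by 11.6% of all tested genes. Taken by pairs of equal number, 5 of 8 members (cpr-3, cpr-4, cpr-5, cpl-1 and cpz-1) were lower in the hlh-2 RNAi library in all 3 pairs, a pattern held by 17.7% of all tested genes. For cpr-4 the paired differences were -0.093, -0.14 and -0.22 (log2 CPM, replicates 1 to 3), for cpr-5 -0.15, -0.12 and -0.24, and for cpr-3 -0.13, -0.21 and -0.31. With the replicate number as a block in the 6 RNAi libraries, 3 of 8 members passed as lower under the hlh-2 label: cpr-5 by 0.17 (edgeR adjusted p = 0.0032), cpr-3 by 0.21 (edgeR adjusted p = 0.0089) and cpr-4 by 0.15 (edgeR adjusted p = 0.017), all on the log2 scale. In that fit 1.15% of 13848 tested genes passed as lower and 2.79% in either direction. With the block in all 8 libraries no member passed in this comparison, and the edgeR adjusted p of cpr-4 was 0.322. That fit also placed the L4440 libraries in blocks by their numbers, which were not taken as pairs. The pairing was read from the data, since the labels name no shared day or batch, and the fit of 6 libraries was added after the data were seen.

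**Figure D3:**
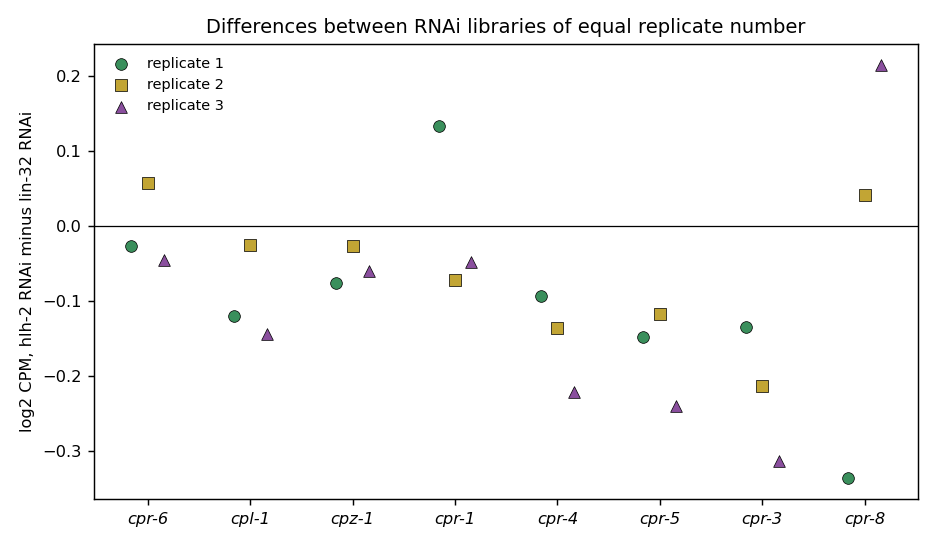
Difference in log2 CPM between the hlh-2 RNAi and the lin-32 RNAi library of the same replicate number, for the 8 tested genes (marker shape and colour: replicate). All 3 points lie below 0 for cpl-1, cpz-1, cpr-4, cpr-5 and cpr-3. The points of cpr-8 run from -0.34 to 0.22.

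The other genes of the worm's proteolytic and lysosomal system were taken from 8 lists holding 123 genes outside the members, 108 of which were tested. Of these, 1 passed for hlh-2 RNAi against L4440, 2 for lin-32 RNAi against L4440 and 0 between the RNAi groups, where 0.203%, 0.743% and 0.406% of all tested genes passed. In the lists below, counts above 0 or at an unadjusted p under 0.05 against L4440 stand without the share of all tested genes. Nothing is read from these counts. Cathepsin B-like genes outside the 9 members gave no call. The list had 4 genes, and 3 were tested. Among them cpr-9 had 1002 and 1045 CPM in L4440, 986, 963 and 966 CPM with hlh-2 RNAi and 1017, 987 and 1050 CPM with lin-32 RNAi. Against L4440 it differed by -0.076 ± 0.040 on the log2 scale for hlh-2 RNAi (SE, edgeR adjusted p of 0.777). For lin-32 RNAi the value was -0.0079 ± 0.040 (SE, edgeR adjusted p of 0.962). None of these 3 genes had an unadjusted p under 0.05 in any comparison, and neither DESeq2 nor limma-voom called one.

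A p that misses the threshold does not show that levels were equal. More distant papain family genes, 8 of 15 tested, had medians of 0.040 and -0.0061 (log2) against L4440 and no call by edgeR, DESeq2 or limma-voom, with 1 gene at an unadjusted p under 0.05 in each comparison. It was Y40H7A.10 against L4440, at 0.14 ± 0.054 for hlh-2 RNAi and 0.12 ± 0.054 for lin-32 RNAi (log2, SE), and tag-196 between the RNAi groups. The cystatin genes stayed near the control. The cpi-1 inhibitor had 180 and 167 CPM in L4440, 166, 198 and 179 CPM with hlh-2 RNAi and 176, 220 and 188 CPM with lin-32 RNAi. The cpi-2 inhibitor ran from 179 to 189 CPM over all libraries. Neither passed in any comparison with edgeR, DESeq2 or limma-voom, and neither had an unadjusted p under 0.05.

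The aspartyl proteases are the other main class of digestive and lysosomal endopeptidases. Of 11 tested asp genes, asp-14 passed the edgeR test and fell against L4440 in both RNAi groups, from 155 ± 11.4 CPM (SD, n = 2) to 91.3 ± 11.5 CPM (SD, n = 3) with hlh-2 RNAi and 93.1 ± 12.5 CPM (SD, n = 3) with lin-32 RNAi. On the log2 scale it fell by 0.76 ± 0.11 (SE) with an edgeR adjusted p of 0.013 for hlh-2 RNAi, and by 0.74 ± 0.11 (SE) with an edgeR adjusted p of 0.0066 for lin-32 RNAi. The list medians were -0.047 and 0.0063 (log2), with 5 and 6 of 11 genes above 0, and 5 and 4 at an unadjusted p under 0.05. DESeq2 called 3 and 3 asp genes (asp-14 and asp-13 in both, asp-1 for hlh-2 RNAi and asp-17 for lin-32 RNAi) and limma-voom 2 and 1. Among the genes above 0 were asp-13, at 0.24 ± 0.056 and 0.26 ± 0.056, and asp-17, at 0.46 ± 0.19 and 0.64 ± 0.19 (log2, SE). Among those below 0 were asp-1, at -0.30 ± 0.057 and -0.18 ± 0.057, and asp-3, at -0.16 ± 0.047 and -0.099 ± 0.047 (log2, SE). None of these genes was past the edgeR threshold, and asp-1 was nearest to it for hlh-2 RNAi (edgeR adjusted p of 0.0659). The values of asp-13, asp-17, asp-1 and asp-3 were chosen after they were seen. Among the serine carboxypeptidases with the legumain gene lgmn-1, none of 13 passed with edgeR, while 4 and 2 had an unadjusted p under 0.05. DESeq2 called 0 and 1, and limma-voom 0. In that list pcp-3 had log2 fold changes of 0.35 ± 0.092 and 0.43 ± 0.092 (SE) and pcp-4 of -0.39 ± 0.10 and -0.38 ± 0.10 (SE).

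The proton pump that acidifies lysosomes was close to the control. None of 21 V-ATPase genes passed against L4440 with edgeR, DESeq2 or limma-voom, with 0 and 3 at an unadjusted p under 0.05. Their log2 fold changes ran from -0.060 to 0.071 for hlh-2 RNAi and from -0.053 to 0.20 for lin-32 RNAi, the highest being vha-3. Above 0 were 12 and 16 of the 21. Between the RNAi groups none passed either, while 5 of 21 had an unadjusted p under 0.05 (7.97% of all tested genes). In that comparison 6 of 21 lay above 0 (49.3% of all tested genes). Of 41 tested genes of the lysosome membrane and of other hydrolases, the glucosidase gene aagr-1 rose for lin-32 RNAi, from 41.9 ± 2.95 CPM (SD, n = 2) to 50.7 ± 1.498 CPM (SD, n = 3). The log2 difference was 0.27 ± 0.054 (SE, edgeR adjusted p = 0.039). For hlh-2 RNAi it was 0.26 ± 0.054 (SE, edgeR adjusted p = 0.124). The list medians were 0.068 and 0.036 (log2), with 8 and 11 of the 41 genes at an unadjusted p under 0.05. DESeq2 called 1 and 2 of them (aagr-1 in both, aagr-2 for lin-32 RNAi) and limma-voom 0 and 1. Regulators of gut and lysosomal genes gave 0 calls among 9 with edgeR, DESeq2 and limma-voom, and 0 and 1 had an unadjusted p under 0.05. Of these, the gut GATA factor gene elt-2 ran from 9.17 to 10.6 CPM over all libraries, and hlh-30, the worm's TFEB, had log2 fold changes of 0.043 ± 0.057 and 0.14 ± 0.057 (SE). Without L4440 replicate 1, or without L4440 replicate 2, none of the 108 genes passed against L4440. The asp-14 calls held when any RNAi library was left out, whereas the aagr-1 call was lost without hlh-2 RNAi replicate 2 and without lin-32 RNAi replicate 1, 2 or 3.

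**Figure D4:**
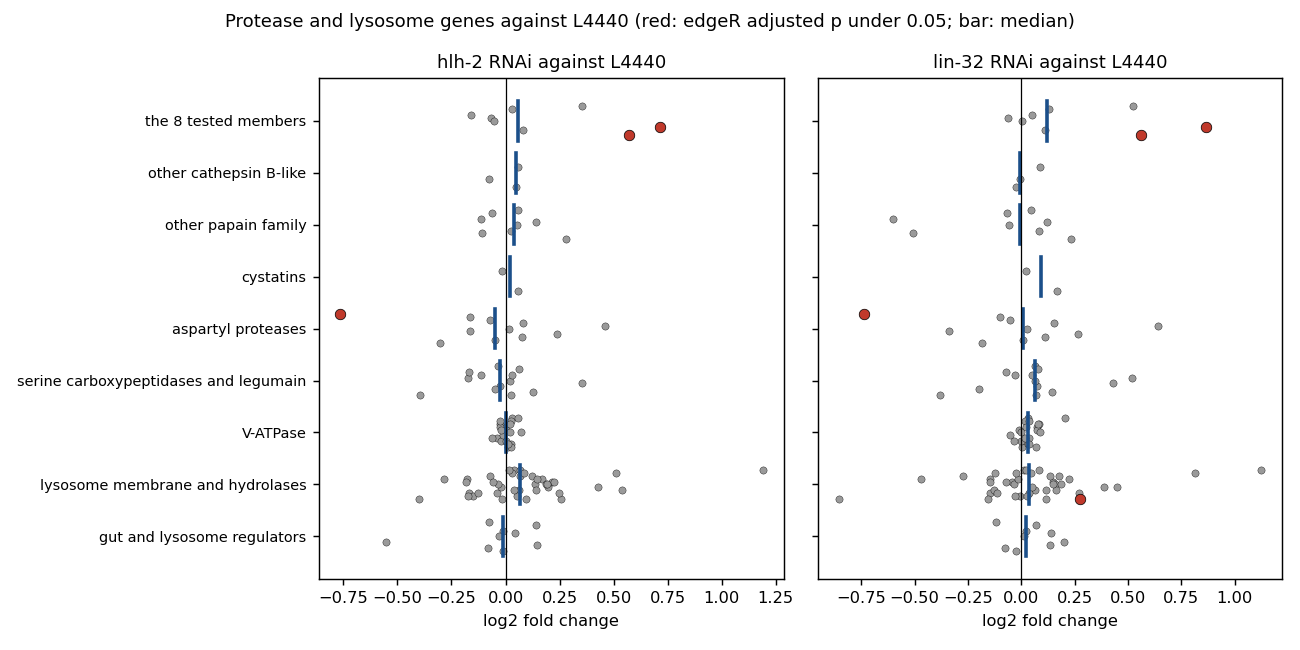
Log2 fold change against L4440 of the 8 tested members and of the tested genes of 8 protease and lysosome lists, for hlh-2 RNAi (left) and lin-32 RNAi (right). Each point is a gene, red where the edgeR adjusted p is under 0.05, and the vertical bar is the median of the list. The red points among the lists are asp-14 on both sides, at -0.76 and -0.74, and aagr-1 on the right, at 0.27.

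Markers of the tissues in a whole worm were read beside the members. In bulk RNA, fewer cells of a type and less RNA per cell cannot be told apart. Of 13 intestine markers, none was at 0 and none passed in any comparison with edgeR, DESeq2 or limma-voom, with 1, 3 and 0 at an unadjusted p under 0.05 for hlh-2 RNAi, for lin-32 RNAi and between them. Their summed level was 505 and 489 CPM in L4440, 573, 504 and 492 CPM with hlh-2 RNAi and 596, 496 and 538 CPM with lin-32 RNAi, so the groups overlapped, with replicate 1 of each RNAi group the highest. Divided by that sum in the same library, cpr-4 stood at 0.243 and 0.252 in L4440, at 0.397, 0.359 and 0.401 with hlh-2 RNAi and at 0.407, 0.400 and 0.427 with lin-32 RNAi. Likewise cpr-1 stood at 0.289 and 0.312 in L4440 and between 0.381 and 0.456 in the RNAi libraries. For cpr-5 the ratio was 0.193 and 0.248 in L4440 and from 0.231 to 0.313 in the others. These ratios were added after the values were seen and support nothing.

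Markers of the other tissues included 2 coelomocyte genes, since those scavenger cells are rich in lysosomes, and these summed to 4.44 to 5.59 CPM over all libraries. Yolk protein genes, made in the intestine of adults, summed to 65642 and 66791 CPM in L4440, 61834 to 63083 CPM with hlh-2 RNAi and 59451 to 65089 CPM with lin-32 RNAi, and none of the 6 passed with edgeR, DESeq2 or limma-voom (1 at an unadjusted p under 0.05 in each comparison with L4440). All 6 had log2 fold changes below 0 in both comparisons with L4440, the other sign from cpr-1 and cpr-4. Their medians were -0.083 and -0.075 (log2), beside -6.8e-04 and 0.0015 for all tested genes. The share of all tested genes below 0 is not given here, so nothing is read from this count of signs. The hypodermal list had 2 calls for lin-32 RNAi, both lower, in the cuticle collagen genes rol-6 and dpy-13, which had 19 to 31 counts per library in L4440 and 0 to 8 in the lin-32-labelled libraries. Between the RNAi groups rol-6 was higher under the hlh-2 label by 3.101 ± 0.58 (log2, SE, edgeR adjusted p of 0.040), and so was the body muscle myosin gene myo-3, by 0.24 ± 0.043 (log2, SE, edgeR adjusted p of 0.031). The body muscle list did not go with myo-3: only 3 of its 9 genes lay above 0 there, with a median of -0.048 (log2). No marker of any of the 9 lists was at 0 in all libraries, while the sperm list summed to no more than 1.88 CPM. The part of tissue makeup or stage in the differences of cpr-1 and cpr-4 was not tested.

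The genes whose pattern over the 8 libraries was most like that of cpr-4 or cpr-1 were sought among 4665 tested genes outside the 9 members, with a mean of at least 10 CPM and a lettered, numbered symbol. Likeness was the root mean square difference of log2 CPM after each gene's own mean was removed, so a smaller value is nearer. Nearest to both among them was the lysozyme gene lys-4, at 0.13 from cpr-4 and 0.089 from cpr-1. It had 126 and 134 CPM in L4440, 227, 165 and 171 CPM with hlh-2 RNAi and 211, 182 and 188 CPM with lin-32 RNAi. After it, nearest to cpr-4 came the UDP-glucuronosyltransferase genes ugt-32, ugt-53 and ugt-63 and pgph-1, at 0.14, 0.16, 0.18 and 0.20. Nearest to cpr-1 came ugt-53, pgph-1, the ABC transporter gene pmp-5 and the infection response gene irg-8, at 0.11 to 0.14. Between members, cpr-1 and cpr-4 were 0.12 from each other, cpr-1 and cpr-5 0.14, and cpr-4 and cpr-5 0.19. Smaller still were 0.058 between cpr-6 and cpz-1, 0.061 between cpl-1 and cpz-1, 0.083 between cpl-1 and cpr-6 and 0.11 between cpl-1 and cpr-8. The measure is not scaled to a gene's spread, so genes that vary little come out near each other. For cpr-6, cpl-1 and cpz-1 the highest library was 1.15, 1.18 and 1.19 times the lowest. For cpr-1 and cpr-4 it was 1.71 and 1.98 times the lowest. All genes share the depth and the replicate structure of these libraries, and the likeness is a description without a test.

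**Figure D5:**
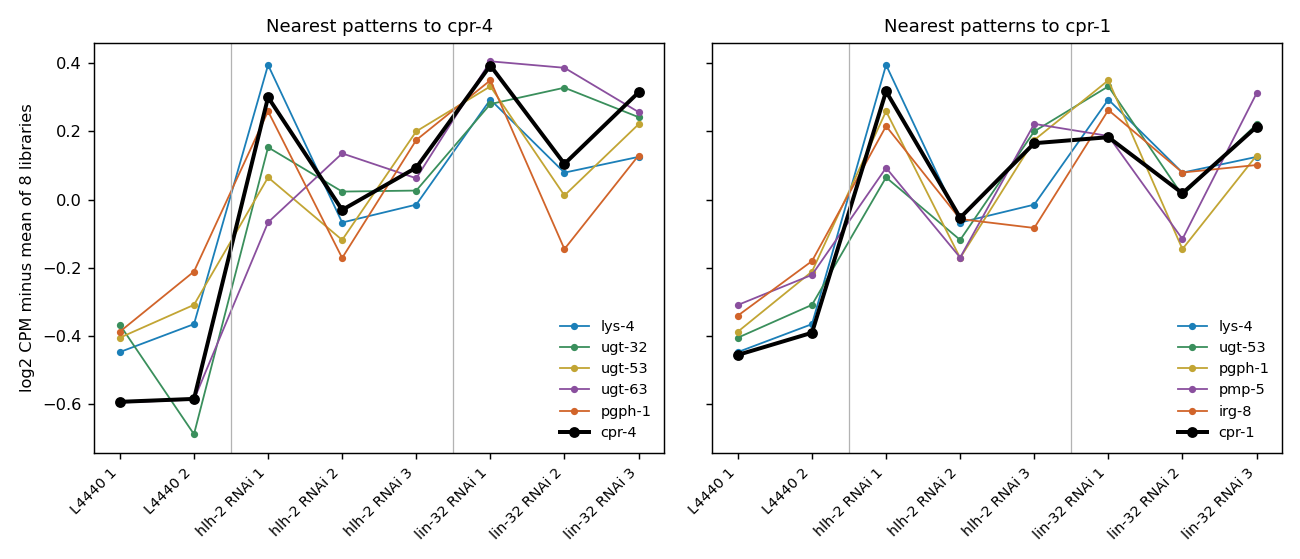
Log2 CPM in each library minus the gene's mean over the 8 libraries, for cpr-4 (left, black) and cpr-1 (right, black) with the 5 genes outside the members nearest to each in pattern. The lines only join the values of a gene. L4440 libraries lie below 0 for all these genes, and replicate 2 of lin-32 RNAi lies below its replicates 1 and 3 for cpr-4, cpr-1, lys-4, ugt-53, pgph-1, pmp-5 and irg-8 but not for ugt-32 and ugt-63.

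The neighbours of cpr-1 and cpr-4 on the chromosome did not pass against L4440. The macrophage migration inhibitory factor gene mif-2 ends 20 bases from cpr-1 on the other strand, and it differed from L4440 by -0.11 ± 0.065 (log2, SE, edgeR adjusted p of 0.809) with hlh-2 RNAi. With lin-32 RNAi the difference was -0.066 ± 0.065 (log2, SE, edgeR adjusted p of 0.739). The tested neighbour of cpr-4 was gon-14, 3515 bases away, at 0.019 ± 0.033 (log2, SE, edgeR adjusted p of 0.963) with hlh-2 RNAi. With lin-32 RNAi it was at -0.032 ± 0.033 (log2, SE, edgeR adjusted p of 0.755). The gene on the other side of cpr-4, the nuclear hormone receptor gene nhr-37, had 0 to 3 counts per library.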

How the data were processed

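Per the labels' protocols, total RNA went into unstranded TruSeq RNA v2 libraries. The submitters' processing notes name featureCounts 1.4.6-p4, TopHat2 2.1.0, bcl2fastq 1.8.4 and the build WBcel235. The deposited values are the authors' raw read counts per gene. The sources used here do not state the annotation release or counting settings. Gene symbols were matched by WormBase ID (43693 IDs) and exon lengths from Ensembl release 115.

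Counts were tested in R 4.3.3 with edgeR 4.0.16: filterByExpr by group, TMM, 1 quasi-likelihood fit of all 8 libraries with group as the term, and Benjamini-Hochberg adjustment over 14272 genes at a threshold of 0.05. Standard errors were taken from the F statistic. CPM use TMM-scaled totals. The steps were tested on simulated data. Alternatives were other scalings and filters, DESeq2 1.42.0, limma-voom 3.58.1, only the groups compared, a replicate block and leaving out each library.

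Between the RNAi groups, deviations of libraries with equal replicate numbers correlated at 0.265, 0.194 and 0.191 across genes, and these numbers were taken to pair them. The numbers of L4440 correlated at -0.066 and -0.165 with hlh-2 RNAi and at -0.037 and -0.122 with lin-32 RNAi, and were not taken as pairs.

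The members and lists were chosen with earlier results of these data known. Of 210 listed names, 3 matched no gene. All members are named, and of each list the genes that passed, up to 4 in a direction, or else the 2 with the smallest p, of which the text gives some. The values of elt-2, hlh-30 for hlh-2 RNAi, asp genes other than asp-14 against L4440 and the chromosomal neighbours lie outside this rule. They were chosen after values were seen. Sequences of the members, and the motif search planned on them, were not used here.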

Additional observations from a re-analysis of the deposited data

How the results depend on the processing

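Counts of calls depended on the setting more than the members' differences did. Without a filter on low counts 223, 610 and 342 genes passed for hlh-2 RNAi against L4440, lin-32 RNAi against L4440 and hlh-2 RNAi against lin-32 RNAi, in place of 29, 106 and 58. Then 3 members passed for hlh-2 RNAi against L4440 (cpr-5 added), 4 for lin-32 RNAi against L4440 (cpr-5 and cpl-1 added) and 3, cpr-3, cpr-4 and cpr-5, between the RNAi groups, and of the protease and lysosome lists 10, 14 and 1 genes passed in place of 1, 2 and 0. That fit took in every gene with any count, so the shares of tested genes given above do not apply to it. Its own shares are not given here, so nothing is read from its counts of members or listed genes in any comparison. The comparisons with L4440 also chose the family. With DESeq2 49, 177 and 91 genes passed, and of the lists 4 and 6 in the comparisons with L4440. Of the lists 2 passed for hlh-2 RNAi against L4440 with limma-voom and with only the 2 groups compared. The replicate block in 8 libraries gave 72, 350 and 132 genes and, of the lists, 5 and 8 in the comparisons with L4440. It changed no call of a member, and it also blocked the L4440 libraries by their numbers. The block in the 6 RNAi libraries gave 386 genes, 3 members and 1 listed gene.

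Leaving out 1 library gave 3 to 31, 17 to 157 and 25 to 93 genes in the 3 comparisons. Members called then numbered 0 to 2 for hlh-2 RNAi and 1 to 2 for lin-32 RNAi, and listed genes 0 to 2 and 0 to 4. The log2 fold change of cpr-4 ran from 0.62 to 0.79 for hlh-2 RNAi and from 0.80 to 0.94 for lin-32 RNAi, and that of cpr-1 from 0.48 to 0.67 and from 0.52 to 0.62. Between the RNAi groups the sign turned only in differences near 0. That of cpr-6 became 0.0079 with library size alone and ran from -0.051 to 0.046 with 1 library left out, above 0 in 3 cases (hlh-2 RNAi replicates 1 and 2, 0.010 and 0.011, and lin-32 RNAi replicate 3, 0.046). That of cpr-1 ran from -0.077 to 0.10, below 0 without hlh-2 RNAi replicate 1 (-0.077) or lin-32 RNAi replicate 2 (-0.046). That of cpr-8 ran from -0.089 to 0.084, above 0 without replicate 1 of either group (0.020 and 0.084). The cause of these changes was not tested. Depth limits cpr-2, which had 1 to 3 counts in a library.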
